A study of Rattus norvegicus with 8 samples.

Results

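The miR-15 and miR-16 family, here with miR-195, miR-497, miR-322 and miR-503, is a group of miRNAs with the same or nearly the same seed, the stretch at bases 2 to 8 by which a miRNA pairs with its target mRNAs. It was examined in RNA from the exosome-rich fraction of rat serum. Members were chosen by name among the rat miRNAs of the array, and all 6 names looked for (rno-miR-16-5p, rno-miR-15b-5p, rno-miR-195-5p, rno-miR-497-5p, rno-miR-322-5p and rno-miR-503-5p, with rno for the rat, left off from here on) were present, out of 719 rat miRNAs in all. Of the 6 members, 4 were detected on all 8 arrays, miR-322-5p was detected on 7, and miR-503-5p was not detected on any.

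The tested samples were 4 sera from male Wistar rats with surgically induced acid reflux esophagitis, labelled replicates 5, 8, 9 and 10 and taken on day 21, the chronic phase. They were set against 4 sera from sham-operated male Wistar rats, labelled control replicates 1, 2, 3 and 4. The labels give no day for the controls, and day 21 is taken from the study's design text. In the model, the outlet of the stomach is narrowed with a ring and the forestomach is ligated, so that gastric contents flow back into the esophagus. The sources used here do not say whether each serum came from its own rat, and each p-value therefore reflects how far these samples lie apart, which may be technical.

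The members lower the amount of proteins that drive cells through the G1 phase, among them cyclin D1, cyclin E1 and CDK6, and of the anti-apoptotic protein BCL2. They are transcribed in short clusters, in which neighbouring hairpins are cut from a shared precursor. In blood, miR-16-5p is abundant in red cells and is often used as a reference miRNA for serum. No miRNA of the family is specific to the esophagus.

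The mature sequences of the 6 members, from RefSeq on assembly GRCr8, are shown because the rest of the text turns on how much they share. Each runs 5′ to 3′, with the seed in capitals.
miR-16-5p: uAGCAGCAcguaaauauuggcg
miR-15b-5p: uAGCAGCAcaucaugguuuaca
miR-195-5p: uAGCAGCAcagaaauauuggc
miR-497-5p: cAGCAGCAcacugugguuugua
miR-322-5p: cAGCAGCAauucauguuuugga
miR-503-5p: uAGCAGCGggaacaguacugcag

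The first 5 carried the same seed, AGCAGCA, and no other array miRNA did, among the 641 with a RefSeq mature sequence. The seed of miR-503-5p, AGCAGCG, differed in its last base. Past the seed the members parted. Counted with the seed, miR-16-5p and miR-195-5p were alike at 19 of 21 positions (90.5%), the closest pair. By the same count miR-497-5p and miR-503-5p were alike at 10 of 22 positions (45.5%), the most distant pair. Past the seed the former were alike at 11 of 13 positions and the latter at 4 of 14.

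The 6 members lay in 3 clusters. miR-15b-5p (chr2:155555197-155555218) and miR-16-5p (chr2:155555343-155555364) lay on the plus strand within Smc4, a gene for a condensin subunit, with their starts 146 bases apart. miR-497-5p (chr10:55450172-55450193) and miR-195-5p (chr10:55450509-55450529) lay on the plus strand with starts 337 bases apart. No RefSeq gene held the whole of either, with miRNA genes and genes whose names start with Mir left out of the search. miR-322-5p (chrX:137726198-137726219) and miR-503-5p (chrX:137725899-137725921) lay on the minus strand with starts 299 bases apart, inside the uncharacterised gene LOC102550366.

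Each miRNA was read by 2 probes of different length, with 10 spots each. The probes are shown for the closest pair of members and for miR-322-5p, since the detection of the dim members rested on them. The bases that pair with the seed are in capitals.
miR-16-5p longer probe: cgccaatatttacgTGCTG
miR-16-5p shorter probe: cgccaatatttacgTGCT
miR-195-5p longer probe: gccaatatttctgTGCTGC
miR-195-5p shorter probe: gccaatatttctgTGCTG
miR-322-5p longer probe: tccaaaacatgaatTGCTGCT
miR-322-5p shorter probe: tccaaaacatgaatTGCTGC
All probes matched their mature miRNA over their whole length and left out its first bases. The probes of miR-503-5p were the shortest, at 16 and 15 bases, and paired with 1 base and 0 bases of the seed.

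Between 144 and 245 miRNAs were detected in reflux esophagitis and between 212 and 232 in controls. Reflux esophagitis replicate 9 was the dimmest array, with 144 detected miRNAs and a summed signal of 77376, against 151563 to 268246 on the other 7 arrays. The 8 arrays shared 1 slide and 1 scan. To set arrays side by side, each total signal was taken relative to the 75th percentile of its array among the 144 miRNAs that every array detected, and the quotient is called the scaled signal. The percentile was 1052, 1080, 239 and 442 in reflux esophagitis replicates 5, 8, 9 and 10, and between 494 and 915 in controls. The number of arrays limits the precision of every value. The question asked of each member was whether its scaled signal differed between reflux esophagitis and control serum. limma compared 192 miRNAs, and the median log2 fold change over them was -0.29.

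No member of the family passed the test. Of the 5 members tested, 0 were higher and 0 were lower, against 0 higher and 2 lower (1.04%) among the 192 miRNAs (limma, Benjamini-Hochberg adjusted p under 0.05). The 2 that passed were miR-208a-3p and miR-455-5p, with adjusted p of 0.0307 and 2.0e-05, and neither is a member. miR-208a-3p was detected on 1 array of reflux esophagitis and on 4 of control. Undetected values were raised to a floor, the lowest scaled value of a detected miRNA. At this floor lay 2, 5, 48 and 13 of the 192 in reflux esophagitis replicates 5, 8, 9 and 10, and 0 in each control. The filter and floor therefore tilt these counts towards lower, and among the 144 miRNAs detected on all arrays 0 passed. At an unadjusted p under 0.05, limma called 5 of the 192 lower and 0 higher, where 9.6 in either direction are expected by chance. The median log2 fold change of the 4 members detected on all arrays was -0.19, the same as the median of -0.19 over all 144 such miRNAs. The sign of a member's value depended on the scaling: divided by the median of the array instead, miR-15b-5p, miR-195-5p and miR-497-5p stood at 0.046, 0.057 and 0.0071, and miR-16-5p at -0.20. In no member were the groups without overlap, which they were in 3 of the 192 (1.56%).

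miR-16-5p was detected with both of its probes on every array. Its total signal was 6438, 10356, 1854 and 2660 in reflux esophagitis replicates 5, 8, 9 and 10, and 4521, 6232, 4914 and 9142 in control replicates 1, 2, 3 and 4. It made up between 1.76% and 3.86% of the summed signal in reflux esophagitis and between 2.30% and 3.57% in controls. The shares of the groups overlapped.

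After scaling, miR-16-5p stood at 6.12, 9.59, 7.75 and 6.02 in reflux esophagitis replicates 5, 8, 9 and 10, and at 7.75, 12.6, 8.81 and 9.99 in control replicates 1 to 4. Replicates 5 and 10 lay below all controls, whereas replicate 8 lay above 2 of them. The mean was 7.37 ± 1.68 in reflux esophagitis and 9.79 ± 2.10 in controls (SD, n = 4 each). The log2 fold change was -0.41 (standard error 0.30, 95% confidence interval -1.10 to 0.27), with an adjusted p of 0.912 from limma and a p of 0.143 from the two-sided exact permutation test. This interval spans folds of 0.468 to 1.20, and values within it cannot be told apart at this number of arrays.

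miR-15b-5p, the cluster neighbour of miR-16-5p, overlapped more closely between the groups. Its scaled signal was 2.17, 3.43, 2.27 and 2.06 in reflux esophagitis replicates 5, 8, 9 and 10, against 2.14, 3.04, 2.77 and 3.07 in control replicates 1 to 4. Replicate 8 of reflux esophagitis was the highest of the 8 arrays and replicate 10 the lowest. The log2 fold change was -0.17 (standard error 0.30, 95% confidence interval -0.84 to 0.50, limma adjusted p = 0.927).

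The chromosome 10 members were detected on all arrays, but with signals nearer to the limit. miR-195-5p, which in mouse holds back the cell cycle of heart muscle cells around birth, had a total signal of 119, 72.3, 13.9 and 36.3 in reflux esophagitis replicates 5, 8, 9 and 10, and of 63.1, 47.1, 59.9 and 45.8 in control replicates 1 to 4. Its scaled signal was 0.113, 0.0669, 0.0579 and 0.0821 in reflux esophagitis, against 0.108, 0.0955, 0.107 and 0.0501 in controls. Control replicate 4 was the lowest of the 8 arrays and stood apart from the other controls, which lay close together. The log2 fold change was -0.16 (standard error 0.37, 95% confidence interval -0.99 to 0.68, limma adjusted p = 0.927).

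miR-497-5p had a scaled signal of 0.147, 0.112, 0.0985 and 0.107 in reflux esophagitis replicates 5, 8, 9 and 10, and of 0.179, 0.205, 0.139 and 0.0603 in control replicates 1 to 4. Control replicate 4 was again the lowest of the 8, and control replicates 2 and 1 were the highest. The SD of the log2 scaled signal was 0.25 in reflux esophagitis and 0.79 in controls. The log2 fold change was -0.21 (standard error 0.42, 95% confidence interval -1.15 to 0.74, limma adjusted p = 0.927). Without control replicate 4 it was -0.58, and without control replicate 2 it was 0.0032.

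**Figure D1:**
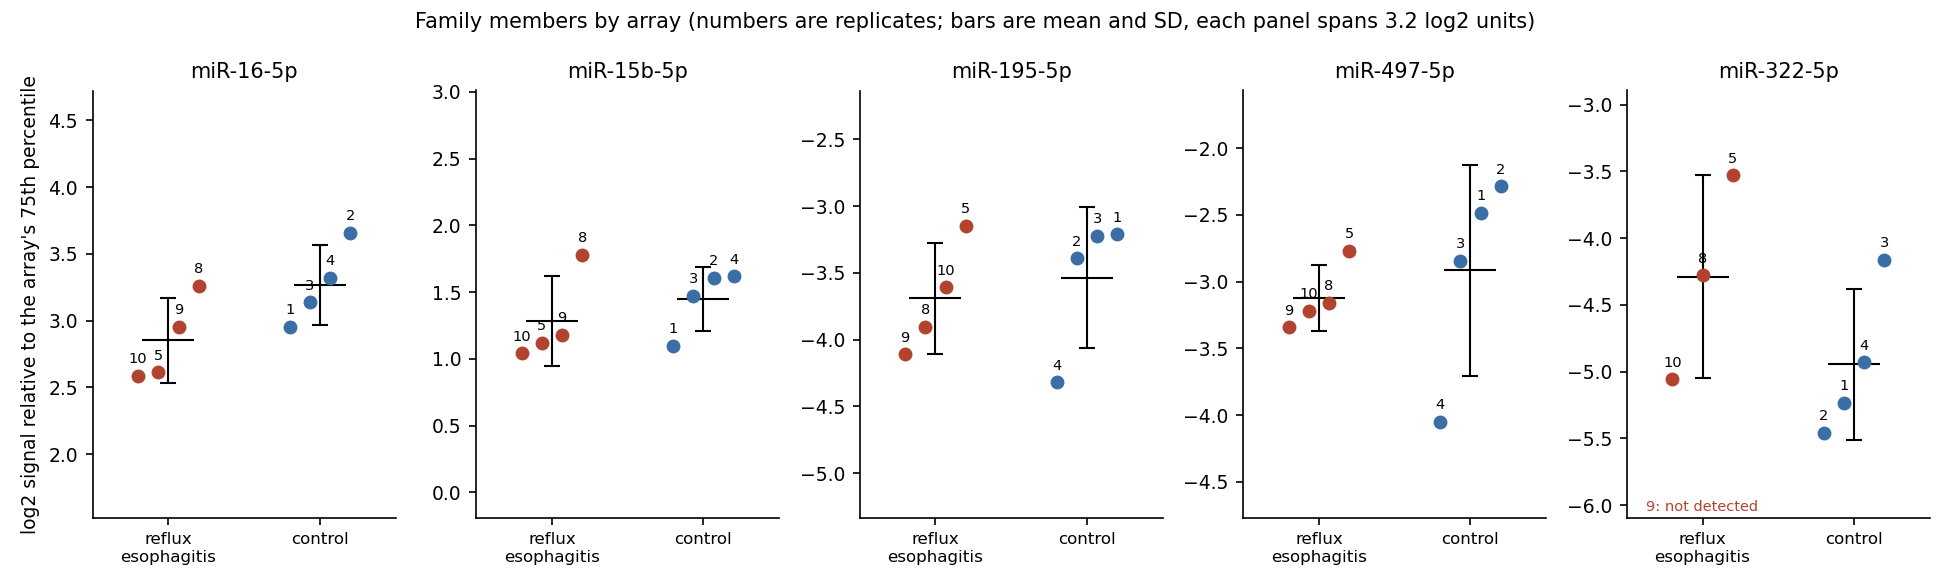
Log2 scaled signal (vertical axis) of the 5 members detected on any array, for reflux esophagitis (left) and control (right) in each panel. Points are arrays with their replicate numbers, and bars are the mean and SD, over the 3 detecting arrays for miR-322-5p in reflux esophagitis. The groups overlap in all panels, and control replicate 4 is the lowest array for miR-195-5p and miR-497-5p.

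miR-322-5p, the rodent counterpart of human miR-424, was detected on 3 of 4 reflux esophagitis arrays and on 4 of 4 control arrays. Its total signal was 91.1, 55.7 and 13.3 in reflux esophagitis replicates 5, 8 and 10, and it was not detected in replicate 9. In control replicates 1, 2, 3 and 4 the total was 15.5, 11.2, 31.2 and 30.0. Replicates 5 and 8 of reflux esophagitis were above every control in total signal.

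The scaled signal of miR-322-5p was 0.0866, 0.0516 and 0.0301 in reflux esophagitis replicates 5, 8 and 10, and 0.0266, 0.0227, 0.0559 and 0.0328 in control replicates 1 to 4. Of the 3 detected arrays of reflux esophagitis, 1 lay above all controls. With replicate 9 set to a floor of 0.0035, the lowest scaled value of a miRNA counted as detected, the log2 difference was -0.31 (limma adjusted p = 0.941), which rests on that floor and is not a measured fold. The direction turned on that array and on the signal used. With no floor, so that replicate 9 kept its total of 0.1, the difference was -1.08, and with replicate 9 left out it was 0.66. With the total signals of both probes added on every array, also those under the detection limit, it was 0.45 over all 8 arrays, a setting chosen after seeing the data. None of these passed.

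miR-503-5p, the cluster neighbour of miR-322-5p, had both probes under the detection limit on all 8 arrays. The signal of its longer probe was at most 2.28 times its error in reflux esophagitis and at most 1.31 times in controls, where the limit for a probe is 3 times. A level below that limit was not detectable here.

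**Figure D2:**
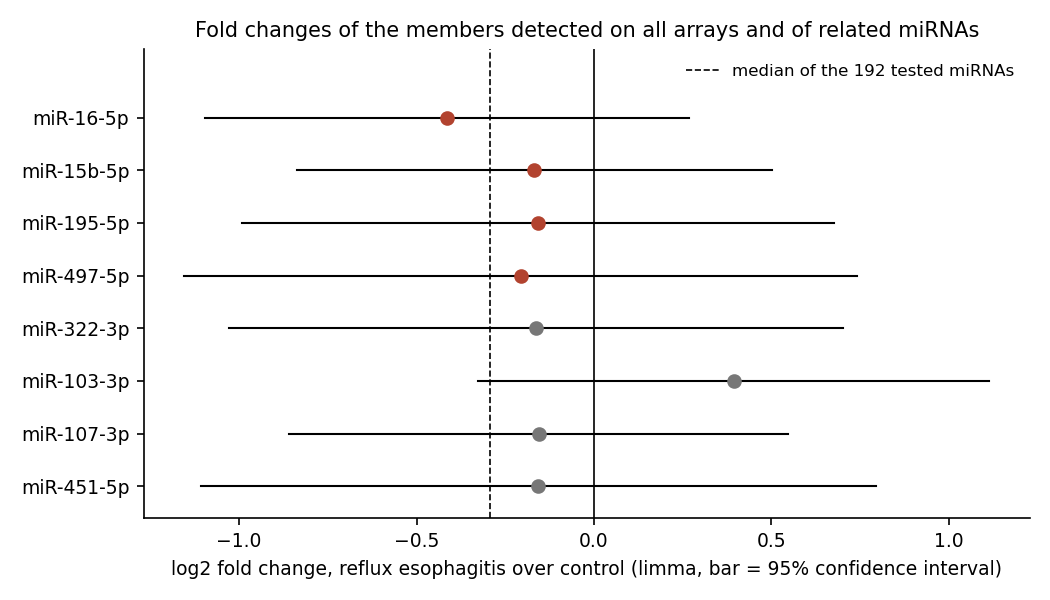
Log2 fold change of reflux esophagitis over control (horizontal axis) with the 95% confidence interval from limma, for the 4 members detected on all arrays (red) and 4 related miRNAs (grey). All 8 intervals include 0 (solid line) and the median of the 192 tested miRNAs, -0.29 (dashed line).

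Agilent's software adds up only those probes of a miRNA that exceed their error 3 times, so a dim miRNA can be the sum of 2 probes on some arrays and a single probe on others. For miR-16-5p and miR-15b-5p both probes entered the total on all 8 arrays. For miR-195-5p both probes entered on 2 arrays of reflux esophagitis (replicates 5 and 8) and 2 of control (replicates 1 and 3), and only the longer probe on the others. For miR-497-5p both entered on 2 arrays of reflux esophagitis (replicates 5 and 8) and 3 of control (replicates 1, 2 and 3). For miR-322-5p both entered on 2 arrays of each group, and only the longer probe on 1 array of reflux esophagitis and 2 of control.

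The longer probe carried most of the signal in these members. Over the arrays, its signal was between 4.40 and 7.06 times that of the shorter probe for miR-195-5p in reflux esophagitis, and between 5.30 and 7.49 times in controls. For miR-322-5p it was between 1.84 and 2.16 times in reflux esophagitis and between 1.92 and 3.04 times in controls, so that the loss of the shorter probe removed more of this total. On reflux esophagitis replicate 9, the longer probe of miR-322-5p read 5.63, at 1.98 times its error, and 0 of its 10 spots were well above background.

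**Figure D3:**
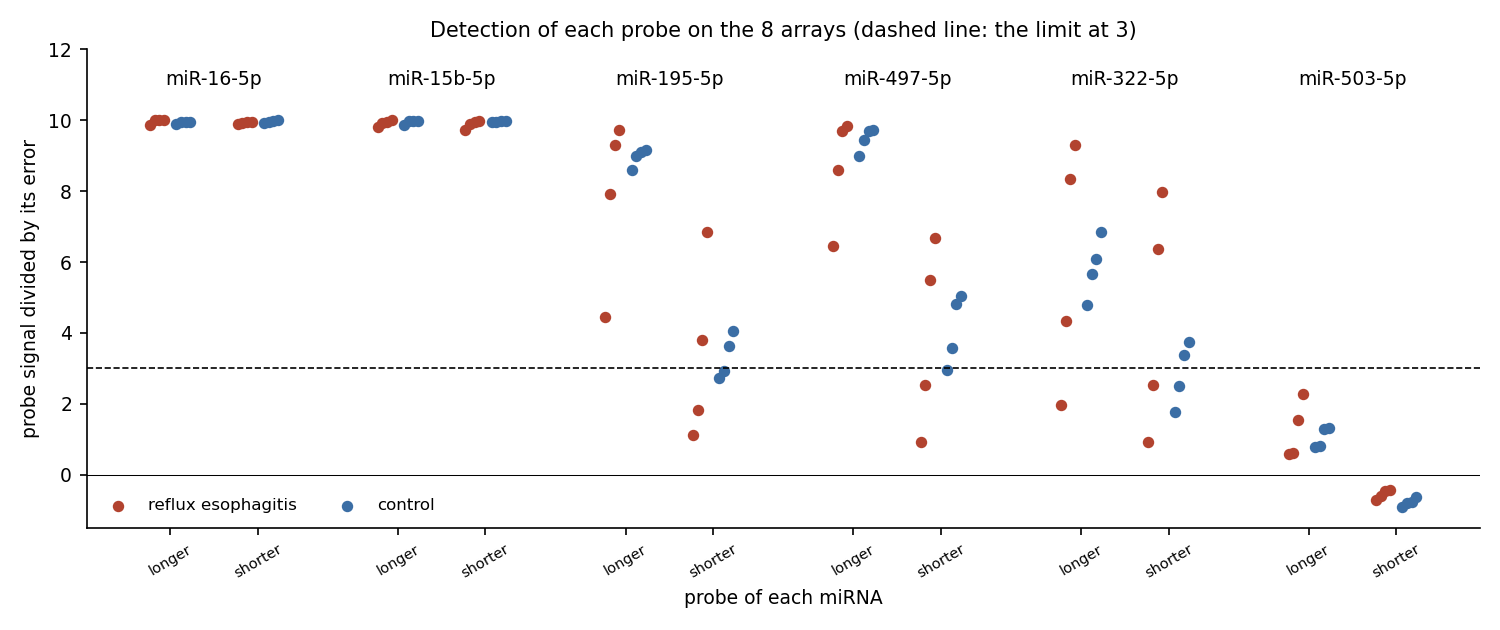
Probe signal divided by its error (vertical axis) for the longer and the shorter probe of each member, with reflux esophagitis (red) left of control (blue) and 1 point per array. The dashed line is the detection limit at 3. Both probes of miR-16-5p and miR-15b-5p lie near 10 on every array, the shorter probes of miR-195-5p, miR-497-5p and miR-322-5p straddle the limit, and both probes of miR-503-5p lie below it.

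Within the bright member, the longer probe of miR-16-5p read 3.85, 3.69, 3.70 and 3.62 times the shorter probe in reflux esophagitis replicates 5, 8, 9 and 10, and 4.03, 3.98, 4.17 and 4.11 times in control replicates 1 to 4. The groups did not overlap, with means of 3.72 ± 0.099 in reflux esophagitis and 4.07 ± 0.084 in controls (SD, n = 4 each). Among the 97 miRNAs with both probes over the limit on all arrays, this ratio was lower without overlap in 4 (4.12%) and higher in 1 (1.03%). The other 3 lower ones were let-7d-5p, let-7i-5p and miR-29a-3p, and the higher one was miR-107-3p. These counts are a description, and no adjusted p was computed for them. For miR-15b-5p the ratio was 3.24 to 3.91 in reflux esophagitis and 3.28 to 5.82 in controls, and overlapped.

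The log2 ratio of 2 miRNAs on the same array does not depend on how arrays are scaled to each other. miR-15b-5p over miR-16-5p had log2 ratios of -1.49, -1.48, -1.77 and -1.55 in reflux esophagitis replicates 5, 8, 9 and 10, and of -1.86, -2.05, -1.67 and -1.70 in control replicates 1 to 4. Of the arrays with reflux esophagitis, 3 of 4 lay above all controls. The difference of the means was 0.25 and was not significant (two-sided exact permutation test, p = 0.0857, and 0.257 after Benjamini-Hochberg adjustment over the 6 ratios computed). For miR-195-5p and miR-497-5p over miR-16-5p the differences were 0.26 and 0.21 (exact permutation test, adjusted p = 0.714 each).

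The miRNAs miR-103-3p and miR-107-3p carry the family's bases AGCAGC from their first base on, so that their own seed is shifted by 1 base. In mouse they lower insulin sensitivity, and their sequences are shown for that shift, with the seed in capitals.
miR-103-3p: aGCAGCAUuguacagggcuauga
miR-107-3p: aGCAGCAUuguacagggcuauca
In RefSeq on GRCr8 they lie at chr3:138963278-138963300 within Pank2 (the Mir103a2 copy, plus strand) and at chr1:241750431-241750453 within Pank1 (minus strand). The log2 fold change was 0.39 for miR-103-3p (standard error 0.32, limma adjusted p = 0.912) and -0.16 for miR-107-3p (standard error 0.31, adjusted p = 0.927).

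miR-16-5p over miR-103-3p had log2 ratios of 3.94, 4.21, 4.36 and 4.12 in reflux esophagitis replicates 5, 8, 9 and 10, and of 4.79, 5.91, 4.48 and 4.68 in control replicates 1 to 4. The groups did not overlap, and control replicate 2 was far above the rest. The difference was -0.81 (exact permutation test, two-sided p = 0.0286, the smallest that 4 against 4 arrays can give), and after adjustment over the 6 ratios the p was 0.171, so it did not pass. Without control replicate 2 the difference was -0.49. Set over each of the 143 other miRNAs detected on all arrays, miR-16-5p was lower without overlap for 2 (1.40%), miR-103-3p and miR-26a-5p, and higher for 0.

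**Figure D4:**
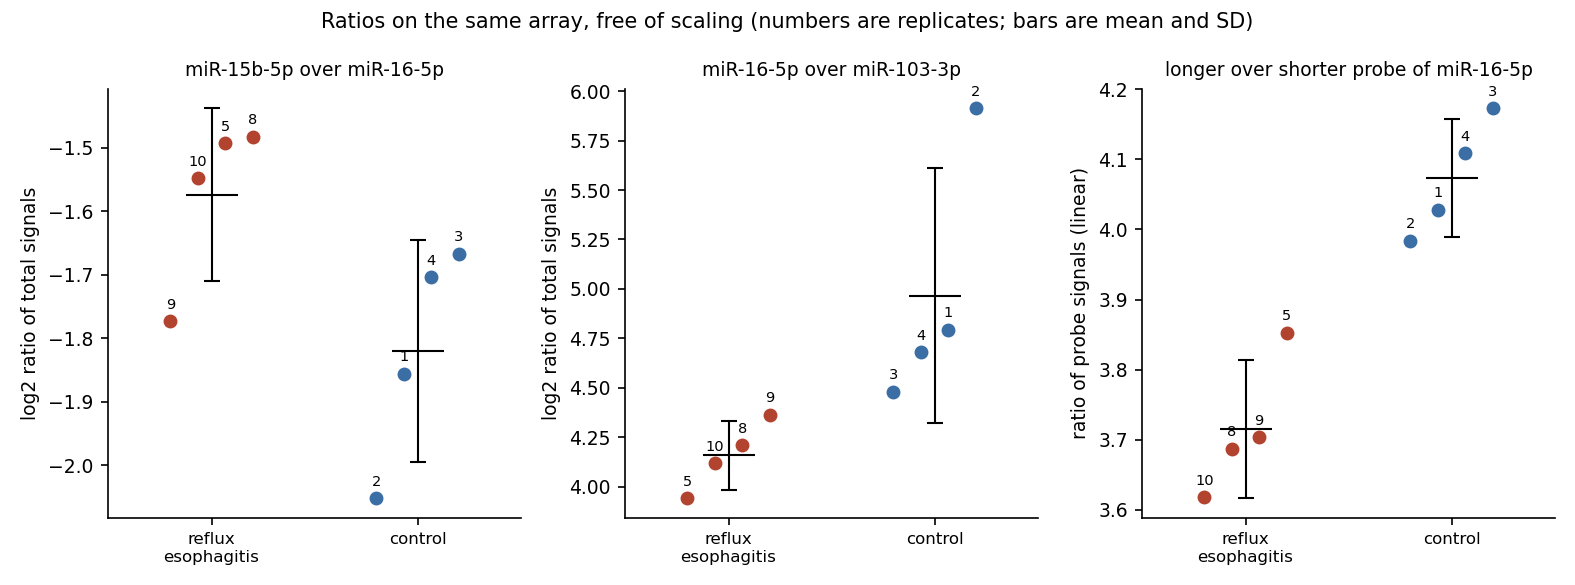
Log2 ratios of total signals on the same array for miR-15b-5p over miR-16-5p (left) and miR-16-5p over miR-103-3p (middle), and the linear ratio of the longer to the shorter probe of miR-16-5p (right), with reflux esophagitis left of control in each panel. Points are arrays with their replicate numbers, and bars are the mean and SD. The groups overlap in the left panel and not in the other 2.

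The opposite strands of the hairpins were mostly dark. Of the 6 opposite arms on the array, miR-322-3p was detected on all 8 arrays, miR-15b-3p on 1 of reflux esophagitis (replicate 8) and 1 of control (replicate 4), and miR-195-3p on 0 of reflux esophagitis and 1 of control (replicate 1). miR-16-3p, miR-497-3p and miR-503-3p were not detected on any array. Only miR-322-3p was tested among them, and it did not pass (log2 fold change -0.16, standard error 0.38, limma adjusted p = 0.927).

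The hairpin of Mir322, at chrX:137726147-137726241 on the minus strand, is shown with both mature arms in capitals because its arms differed in where they were detected.
Mir322: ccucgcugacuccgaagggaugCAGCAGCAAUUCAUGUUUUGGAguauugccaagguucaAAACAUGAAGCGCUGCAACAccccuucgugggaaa
Its arm miR-322-3p had total signals of 38.7, 25.5, 13.8 and 27.4 in reflux esophagitis replicates 5, 8, 9 and 10, and of 34.3, 26.0, 19.9 and 40.6 in control replicates 1 to 4. On reflux esophagitis replicate 9, miR-322-3p was detected and miR-322-5p was not. Of the other miRNAs of this X-chromosome cluster (miR-351, miR-542 and miR-450a, 6 arms on the array), 0 met the condition for testing. miR-542-5p was detected on 2 arrays of reflux esophagitis (replicates 5 and 8) and 3 of control (replicates 1, 2 and 4), miR-450a-5p on 1 of reflux esophagitis (replicate 5) and 0 of control, and the other 4 arms on none.

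In the clusters on chromosomes 2 and 10 the neighbours were correlated over the 8 arrays, while the X-chromosome pair could not be compared, since miR-503-5p was not detected. The log2 scaled signals of miR-16-5p and miR-15b-5p had a Pearson's r of 0.84 (exact permutation test over all pairings, two-sided p = 0.0088, adjusted over the 6 pairs of members p = 0.0264) and a Spearman's rho of 0.88 (exact permutation p = 0.00724, adjusted p = 0.0435). Without the 2 arrays farthest from the median of miR-16-5p, r was 0.85. miR-195-5p and miR-497-5p had an r of 0.86 (exact permutation p = 0.00449, adjusted p = 0.0264) and a rho of 0.81 (exact permutation p = 0.0218, adjusted p = 0.0653), so that the rank correlation did not pass. Without the 2 arrays farthest from the median of miR-195-5p, r was 0.62, and that relation rests in part on them. Apart from control replicate 2, the totals of both held 2 probes on the same arrays and only the longer probe on the same arrays. The share of this in r was not tested.

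Between the clusters no such relation passed. The r of miR-16-5p was -0.24 with miR-195-5p and 0.08 with miR-497-5p, and that of miR-15b-5p was -0.37 and -0.18, with adjusted p of 0.693 or above in exact permutation tests. miR-16-5p and miR-195-5p, the closest pair by sequence, therefore did not follow each other over these arrays in a way the test could show. Without the 2 arrays farthest from the median of the first-named member, r was -0.62 for miR-16-5p with miR-195-5p, -0.60 for miR-16-5p with miR-497-5p, 0.18 for miR-15b-5p with miR-195-5p and 0.53 for miR-15b-5p with miR-497-5p, so these values are not settled by 8 arrays. A difference between the correlations was not tested. With the arrays scaled by their median or by their summed signal, r was 0.88 and 0.87 for miR-16-5p with miR-15b-5p, and 0.78 and 0.86 for miR-195-5p with miR-497-5p.

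**Figure D5:**
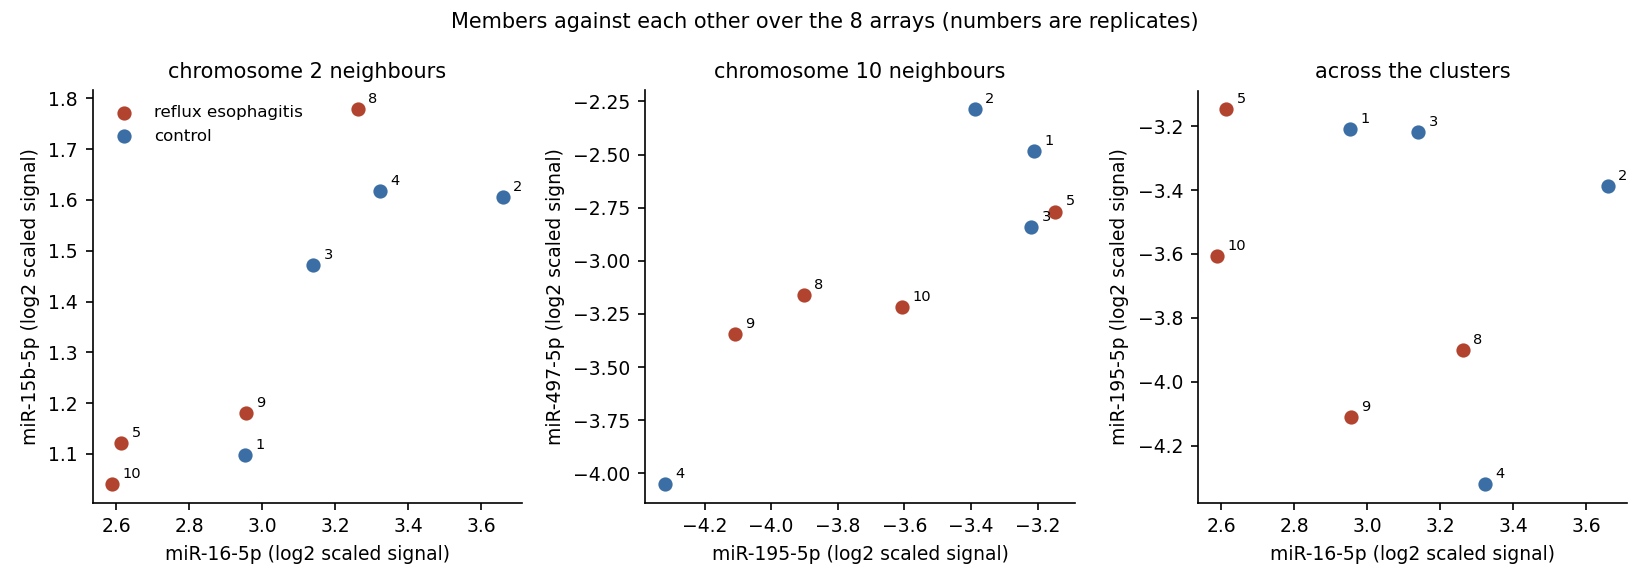
Log2 scaled signals of pairs of members over the 8 arrays, with reflux esophagitis in red, control in blue and replicate numbers beside the points. The chromosome 2 neighbours (left, r = 0.84) and the chromosome 10 neighbours (middle, r = 0.86) line up, and miR-195-5p against miR-16-5p (right, r = -0.24) does not.

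As a description, each of the 4 members detected on all arrays was also set against the 143 other miRNAs detected on all arrays, by Pearson's r of the log2 scaled signal over 8 arrays, which share slide, scan and scaling. Most like miR-16-5p were miR-185-5p (0.95), miR-25-3p (0.95) and miR-106b-5p (0.94), with miR-15b-5p in rank 5. Most like miR-15b-5p were miR-107-3p (0.85), miR-16-5p (0.84) and miR-301a-3p (0.82). miR-195-5p was most like miR-125b-5p (0.95), miR-99a-5p (0.95) and miR-23b-3p (0.92), with miR-497-5p in rank 4. miR-497-5p was most like miR-23b-3p (0.93), miR-27b-3p (0.93) and miR-195-5p (0.86). For both chromosome 10 members the last of the 143 was miR-451-5p, a red blood cell miRNA, with r of -0.69 for miR-195-5p and -0.71 for miR-497-5p. With miR-144-3p, miR-144-5p, miR-92a-3p and miR-25-3p, other red blood cell miRNAs, r was -0.17, -0.41, -0.52 and -0.37 for miR-195-5p. In the same order it was -0.39, -0.66, -0.35 and 0.05 for miR-497-5p. For miR-16-5p, r was 0.02, -0.30, 0.59 and 0.95 with these, and 0.40 with miR-451-5p. For miR-15b-5p, r was 0.50, 0.02, 0.64 and 0.70 with these, and 0.64 with miR-451-5p.

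Since miR-16-5p and miR-15b-5p are abundant in red blood cells, the levels of other red blood cell miRNAs are given beside them. Of the 6 listed, 5 were on the array by name (miR-451-5p, miR-144-3p, miR-144-5p, miR-92a-3p and miR-25-3p), and all 5 were detected on all arrays. Their summed scaled signal was 14.3 to 29.6 in reflux esophagitis and 17.8 to 35.6 in controls. None of the 5 passed, with log2 fold changes of -0.16, 0.26, 0.32, -0.29 and -0.53 in the order named. Their median was -0.16, against -0.19 over the 144 miRNAs detected on all arrays. Of the other markers listed, 6 platelet, 6 leukocyte, 3 smooth muscle and fibroblast and 2 liver miRNAs were tested and 0 passed. Of 5 striated muscle miRNAs tested 1, miR-208a-3p, was called lower. In reflux esophagitis it was detected on replicate 5 only and set to the floor on replicates 8, 9 and 10. That call therefore rests on floor values and is not a measured fold.

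miR-451-5p, which is made in maturing red blood cells, had a scaled signal of 6.89, 17.6, 11.9 and 13.1 in reflux esophagitis replicates 5, 8, 9 and 10, and of 8.43, 10.08, 16.3 and 21.2 in control replicates 1 to 4. It was highest in control replicate 4, the array on which miR-195-5p and miR-497-5p were lowest. It was lowest in reflux esophagitis replicate 5, the array on which miR-195-5p was highest, whereas miR-497-5p was highest in control replicate 2. The other red blood cell miRNAs did not all share these extremes. miR-92a-3p was also highest in control replicate 4 (11.2). miR-144-3p was highest in reflux esophagitis replicate 8 (0.662), miR-144-5p in reflux esophagitis replicate 10 (0.179) and miR-25-3p in control replicate 2 (3.76). In reflux esophagitis replicate 5 miR-25-3p was also lowest (1.19), while the others were lowest elsewhere. Over miR-451-5p and over miR-23a-3p, a serum miRNA often read beside it in checks of haemolysis, the log2 ratio of miR-16-5p differed by -0.26 and -0.29 between the groups (exact permutation test, adjusted p = 0.714 and 0.571). The part of red blood cells in the members' levels was not tested, and in serum a change in the number of exosomes and in the miRNA per exosome cannot be told apart.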

How the data were processed

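RNA from the exosome-rich fraction of serum was measured by the authors on 8 single-colour Agilent rat miRNA arrays (release 19), 1 per sample. The deposited intensity values came from Agilent's Feature Extraction software (version 10.10.1.1), which subtracts background and, per the file headers, adds to a miRNA's total only probes over 3 times their error and sets an undetected miRNA to 0.1. No scaling across arrays had been applied. The value table as deposited gave the processed signal of each of the 15095 features per array, equal within 1e-06 of the value (or 1e-06 for values under 1). No rat miRNA spot was saturated (0 of 14380 per array), and 373 to 455 were marked as outliers.

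Each total was scaled by the 75th percentile of its array among the 144 miRNAs that every array detected. Scaled values under 0.0035, the lowest of a detected miRNA, were raised to it before log2. The groups were compared with limma (version 3.58.1, R 4.3.3, default prior, two-sided) over the 192 miRNAs that every array of 1 or both groups detected, and p-values were adjusted by Benjamini-Hochberg over the 192 at 0.05. The percentile was not taken over all 719 miRNAs, as the methods have it, because it is the value of an undetected miRNA (0.1) in reflux esophagitis replicate 9. Exact permutation tests used all 70 splits of the arrays, or all 40320 pairings for correlations. Within-array ratios were tested the same way and adjusted over 6. The limma fit was tried on 50 simulated sets of normal values drawn without scaling or floor, so that trial did not cover those steps. Figures and sequence matches used Python 3.11.15, pandas 2.3.3, numpy 2.4.6, scipy 1.17.1 and matplotlib 3.10.9.

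Named miRNAs were the 6 members, their opposite arms, the neighbours of miR-322 and miR-503, array miRNAs of the same or a related seed, red blood cell miRNAs, and the 3 miRNAs most like each member detected on all arrays. miR-208a-3p, miR-455-5p, miR-26a-5p, let-7d-5p, let-7i-5p and miR-29a-3p were named after their values were seen. The members and lists were chosen with earlier results of these data known. Alternatives covered signal, probe, background correction, scaling, floor, filter, variance model, the methods' t-test and analysis of variance, and leaving out each array. Real-time RT-PCR and esophageal tissue were not analysed here.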

Additional observations from a re-analysis of the deposited data

Results flagged for a closer look

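In 1 of 37 groups of 4 arrays compared for a value far from the rest, a sample stood apart by Dixon's test at the 95% level, where chance flags about 1 in 20 groups (1.85 of 37). The log2 scaled signal of miR-195-5p was -4.32 in control replicate 4, and the nearest of the other controls was -3.39. The total on that array held the longer probe only, and so did that of control replicate 2, the nearest of the other controls.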

How the results depend on the processing

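No member passed and no miRNA was higher in any of the 30 alternatives. The 2 lower miRNAs became 0 with the mean processed spot signal, the value table, normexp, the methods' scaling, only miRNAs detected on all 8 arrays, either probe of the members alone or the sum of both probes, and 1 with scaling by the summed signal, no scaling, miRNAs detected on at least 1 array, no filter, eBayes with trend and robust, and the methods' t-test and analysis of variance with Benjamini-Hochberg or Bonferroni correction. In the settings with either probe of the members alone, all other miRNAs were read by the mean processed spot signal. That signal by itself gave 0. Array quality weights gave 3 (50 lower and 6 higher at an unadjusted p under 0.05). Leaving out 1 array gave 1 to 2.

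The direction of the members was not settled. Under the scaling of the methods, log2 fold changes stood at 1.28 for miR-16-5p, 1.53 for miR-15b-5p, 1.54 for miR-195-5p, 1.49 for miR-497-5p and 0.62 for miR-322-5p, where the median of all tested miRNAs moved to 1.39 and the percentile was 0.1 in reflux esophagitis replicate 9, against 12.0 to 22.1 on the other 7 arrays. With scaling by the median (all tested -0.08) they were 0.046 for miR-15b-5p, 0.057 for miR-195-5p and 0.0071 for miR-497-5p, and with scaling by the summed signal (all tested -0.10) 0.015 for miR-15b-5p and 0.027 for miR-195-5p. Normexp gave 0.054 for miR-195-5p, 0.021 for miR-497-5p and 0.24 for miR-322-5p, quantile normalization 0.037 for miR-195-5p and 0.21 for miR-322-5p, and the shorter probe alone 0.015 for miR-15b-5p and 0.71 for miR-322-5p. miR-322-5p was also positive with the longer probe alone (0.34), the sum of both probes (0.45), the processed signal (0.45), the value table (0.49), no scaling (0.11) and array weights (0.94, adjusted p = 0.220). With no floor it was -1.08, the lowest of its alternatives. The cause of these other changes was not tested.

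Leaving out each array in turn gave -0.55 to -0.28 for miR-16-5p, -0.33 to -0.088 for miR-15b-5p, -0.42 to -0.017 for miR-195-5p, -0.58 to 0.0032 for miR-497-5p and -0.89 to 0.66 for miR-322-5p. The log2 ratio over miR-16-5p then ranged from 0.17 to 0.31 for miR-15b-5p, -0.023 to 0.47 for miR-195-5p (-0.0049 without reflux esophagitis replicate 5, -0.023 without control replicate 4) and -0.19 to 0.46 for miR-497-5p. That of miR-16-5p ranged from -0.47 to -0.0014 over miR-451-5p, -0.45 to -0.13 over miR-23a-3p and -0.97 to -0.49 over miR-103-3p. Signal over background limits miR-195-5p, miR-497-5p and miR-322-5p, whose shorter probes lay near the detection limit. No paired analysis was possible because the groups share no replicate numbers.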
